A study of Homo sapiens with 8 samples.

Results

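Mitochondrially encoded RNAs are the transcripts of the mitochondrial genome itself. They were chosen as all genes that the deposited count table places on the mitochondrial chromosome, which gave 37 of its 63140 genes: 2 ribosomal RNAs (rRNAs), 13 messenger RNAs (mRNAs) and 22 transfer RNAs (tRNAs). By strand, 12 mRNAs and 14 tRNAs are templated by the heavy strand, and 1 mRNA (MT-ND6) and 8 tRNAs by the light strand. All 37 passed the filter on low counts.

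The mitochondrial genome is transcribed from both strands as long precursors that run through rRNA, mRNA and tRNA genes without introns. The tRNAs stand between most of the other genes, and cutting them out releases the mRNAs and rRNAs on either side. The mRNAs encode core subunits of respiratory complexes I, III and IV and of the ATP synthase, complex V. The rRNAs and tRNAs serve the mitochondrial ribosome that translates them, and each RNA then has its own lifetime, so levels differ although precursors are shared.

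The study edited 2 labelled human acute myeloid leukaemia lines, MOLM13 and OCI-AML4, and sequenced RNA recovered by ChIRP, in which biotinylated probes pull RNA out of cross-linked, sonicated lysate. The 4 groups were AAVS1 KO and HOTSCRAMBL KO, nucleofected with Cas9 ribonucleoprotein, and AAVS1 CBE and HOTSCRAMBL CBE, nucleofected with a cytosine base editor. HOTSCRAMBL is a long non-coding RNA. AAVS1 is a genomic site used here as the editing control, and the labels give the genotype of both AAVS1 groups as WT. Each group held 1 library labelled MOLM13 (replicate 1) and 1 labelled OCI-AML4 (replicate 2), all collected on day 3 after editing. The labels state neither the target of the probes nor an input library, so every value is an amount of RNA in a pull-down and not in whole cells. HOTSCRAMBL has no entry of that name in the table, and its level is not analysed here.

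Library depth was 20548300 to 37970163 assigned counts, which differ by 1.85 times, and 21945 to 26083 genes were detected. All 9 myeloid markers were counted in all 8 libraries. Their summed level was 1170 to 1258 CPM (counts per 1000000, after TMM scaling) in the AAVS1 libraries, 1625 to 1817 in HOTSCRAMBL KO, where LYZ alone gave 506 and 701, and 1226 to 1288 in HOTSCRAMBL CBE. The 9 markers did not move together with KO. On the log2 scale LYZ had 2.20, CEBPA 1.00 and CSF1R 0.69, and the rest ran from −0.84 (ITGAM) to −0.02 (PTPRC). Of 7 markers of other cells, CD3E and HBB were at 0 counts in every library, and EPCAM and MS4A1 had at most 4 counts. The summed level of these 7 was 102 to 108 CPM in the AAVS1 libraries, 158 to 192 in HOTSCRAMBL KO and 115 to 116 in HOTSCRAMBL CBE, nearly all of it PECAM1, at 92.5 to 181 CPM. Only 0.495% of the 24057 tested genes differed between the line labels, and no library of known line was at hand to check them. The part of the marker differences in the results was not tested, and in bulk RNA fewer cells of a type cannot be told apart from less RNA per cell.

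The genes lie edge to edge, which bears on how reads were counted. Per the file headers a read over more than 1 gene was discarded, and strand was not used. Of the 22 tRNA genes, which are 59 to 75 bases long, 18 touch or overlap another mitochondrial gene on at least 1 side and 7 do so on both. Counts of a gene therefore come from reads that touch no other gene, and reads across the junction of adjoining genes entered neither. MT-ND6 and the light-strand tRNAs lie opposite heavy-strand RNA, precursor or processed, whose reads cannot be told apart from theirs. The tRNAs that the results turn on are printed here, 5′ to 3′ with T for U, from GENCODE transcripts of GRCh38, with the anticodon in capitals. They include the heavy-strand tRNA with the highest fold change (MT-TV), the one that moved in opposite directions (MT-TT), an adjacent light-strand pair (MT-TY and MT-TC), and a heavy-strand tRNA called with knockout (MT-TH).
MT-TV, valine, MT:1602-1670, + strand: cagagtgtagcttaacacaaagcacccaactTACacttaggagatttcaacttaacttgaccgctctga
MT-TT, threonine, MT:15888-15953, + strand: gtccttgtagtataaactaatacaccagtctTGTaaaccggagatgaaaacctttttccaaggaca
MT-TY, tyrosine, MT:5826-5891, − strand: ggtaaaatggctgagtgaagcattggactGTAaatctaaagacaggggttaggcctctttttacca
MT-TC, cysteine, MT:5761-5826, − strand: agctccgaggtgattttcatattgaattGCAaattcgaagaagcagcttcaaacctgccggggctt
MT-TH, histidine, MT:12138-12206, + strand: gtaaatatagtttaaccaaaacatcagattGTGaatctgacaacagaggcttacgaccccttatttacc

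MT-ATP8 and MT-ATP6, both subunits of complex V, are read from 1 mRNA in overlapping frames. The shared 46 bases are shown because reads within them count for neither gene, with the start codon of MT-ATP6 and the stop codon of MT-ATP8 in capitals. MT-ND4L and MT-ND4 share 7 bases in the same way.
MT-ATP8/MT-ATP6 overlap, MT:8527-8572, + strand: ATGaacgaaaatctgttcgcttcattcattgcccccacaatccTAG

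Mitochondrially encoded RNA made up a larger part of the libraries of both HOTSCRAMBL groups than of their controls. It took 6.77% and 6.84% of assigned counts in AAVS1 KO (replicate 1 first, here and throughout) and 10.7% and 11.9% in HOTSCRAMBL KO. It took 7.14% and 7.23% in AAVS1 CBE, against 11.6% and 10.2% in HOTSCRAMBL CBE. Groups did not overlap within either editor, and the 4 AAVS1 libraries spanned only 6.77% to 7.23%. Without the rRNAs the editors separated, since the share was then 3.78% ± 0.207 (SD, n = 2) in AAVS1 KO and 7.27% ± 0.365 in HOTSCRAMBL KO, against 3.85% ± 0.275 in AAVS1 CBE and 4.66% ± 0.170 in HOTSCRAMBL CBE. Of the nuclear-retained RNAs set beside them, MALAT1 rose by 0.81 on the log2 scale with KO (edgeR adjusted p 2.46e-07), had 0.22 with CBE (0.136) and differed between editors by 0.59 (0.00577). NEAT1 fell with both editors, at −0.32 (edgeR adjusted p 0.00856) and −0.26 (0.0356). The part of these changes in the mitochondrial values was not tested.

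**Figure D1:**
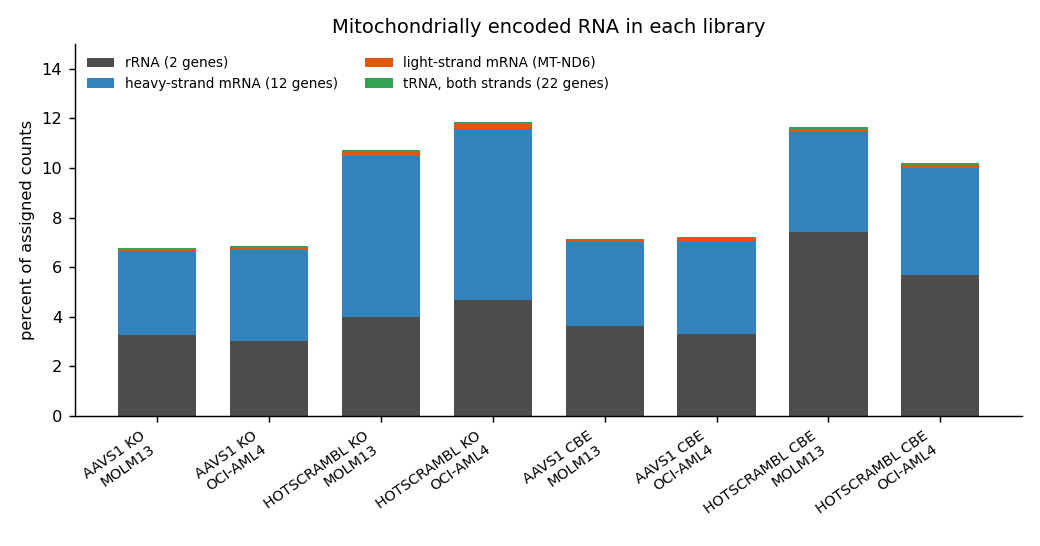
Percent of assigned counts (y axis, from 0) held by 4 classes of mitochondrially encoded RNA in each of the 8 libraries (x axis). The HOTSCRAMBL bars are taller than the AAVS1 bars with each editor, mainly in heavy-strand mRNA with KO and in rRNA with CBE.

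The rRNA and mRNA classes kept a near-even balance in the controls and tipped in opposite directions with the editors. The ratio of rRNA to mRNA counts was 0.939 and 0.809 in AAVS1 KO, against 0.600 and 0.659 with HOTSCRAMBL as target. It was 1.04 and 0.864 in AAVS1 CBE, against 1.81 and 1.29 in HOTSCRAMBL CBE. Both HOTSCRAMBL KO libraries stood below all 4 controls and both HOTSCRAMBL CBE libraries above them. Summed over each class and averaged over the labelled lines, the log2 difference in CPM with KO was 0.62 ± 0.283 (SD, n = 2) for rRNA, 1.09 ± 0.0369 for heavy-strand mRNA and 1.26 ± 0.101 for light-strand mRNA. For tRNA it was 1.14 ± 0.00497 on the heavy and 0.51 ± 0.169 on the light strand. With CBE the order turned, to 1.05 ± 0.188 for rRNA, 0.37 ± 0.0264 for heavy-strand mRNA and 0.19 ± 0.247 for light-strand mRNA. The CBE values for tRNA were 0.61 ± 0.425 on the heavy and 0.89 ± 0.0592 on the light strand. These class sums carry no test, and the light-strand sums can include reads of heavy-strand RNA, since strand was not used. The tRNA genes together held between 0.726% and 0.852% of mitochondrial counts in every library, so the counts here come almost wholly from rRNA and mRNA genes. Reads across the junction of a tRNA gene and its neighbour were not counted, so this is not the tRNA part of the RNA itself.

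Gene by gene, 19 of the 37 were higher and 0 lower in HOTSCRAMBL KO than in AAVS1 KO, where 4.51% of all tested genes were called higher and 4.25% lower. The threshold was an adjusted p (edgeR quasi-likelihood test, Benjamini-Hochberg over all 24057 genes) under 0.05. The 19 were both rRNAs, 12 of the 13 mRNAs and 5 tRNAs. The median log2 fold change of the 37 was 0.84, against −0.01 over all genes tested. In HOTSCRAMBL CBE 16 were higher and 2 lower than in AAVS1 CBE, where 4.56% and 4.27% of all tested genes were called. These were both rRNAs, 9 mRNAs and 5 tRNAs higher, and MT-ND5 and MT-TT lower. The median was 0.48, against −0.02 over all genes. Every one of these calls had the same sign in both labelled lines, 19 of 19 with KO and 18 of 18 with CBE, and over all 37 the signs matched in 33 and 29. The calls were made on these same libraries, which favours matching signs, so the agreement is no separate replication. Without any scaling factor the median of all genes moved to −0.17 with KO and −0.15 with CBE.

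**Figure D2:**
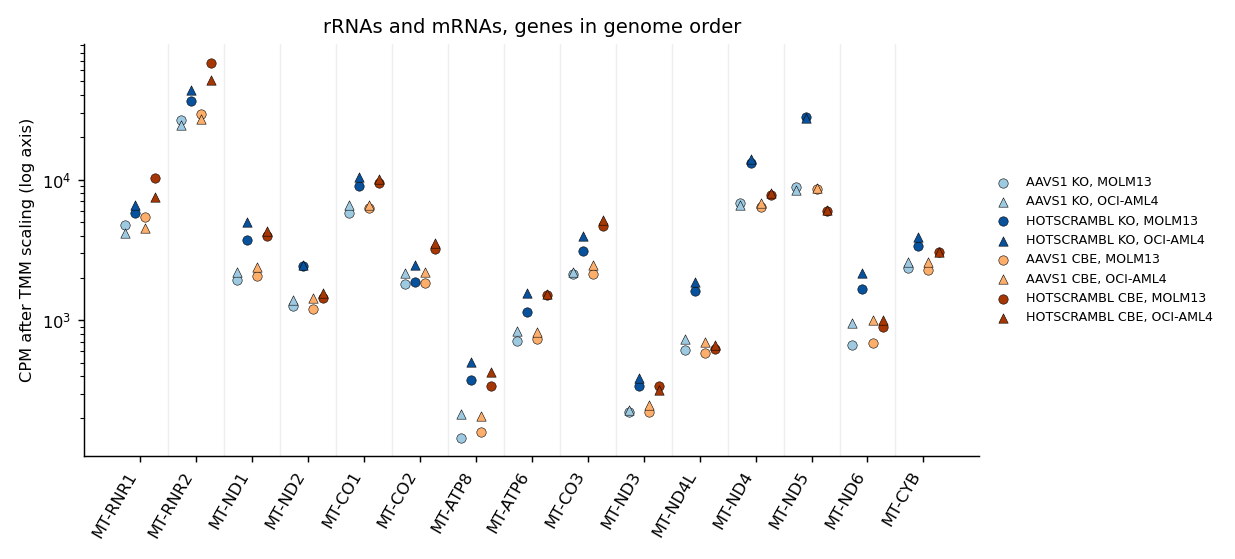
CPM after TMM scaling (y axis, log scale) of the rRNAs and mRNAs (x axis, genome order) in each library, with colour for the group and a circle for MOLM13 or a triangle for OCI-AML4. HOTSCRAMBL KO points lie above their controls for every gene except MT-CO2, and HOTSCRAMBL CBE points fall below theirs for MT-ND5.

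The rRNAs rose with both editors. MT-RNR1 (ENSG00000211459, the 12S rRNA of the small mitochondrial ribosomal subunit, MT:648-1601) stood at 4794 and 4148 CPM in AAVS1 KO against 5809 and 6609 in HOTSCRAMBL KO, and at 5426 and 4516 in AAVS1 CBE against 10305 and 7498 in HOTSCRAMBL CBE. MT-RNR2 (the 16S rRNA of the large subunit, MT:1671-3229) stood at 26484 and 24369, 35986 and 43669, 29092 and 26799, and 67831 and 51474 CPM in the same order. Neither pair of groups overlapped, and the library labelled MOLM13 was the higher of the pair in every group except HOTSCRAMBL KO, for both genes. With KO, MT-RNR1 rose by 0.49 on the log2 scale (SE 0.0907, edgeR adjusted p 5.57e-04) and MT-RNR2 by 0.65 (SE 0.0836, edgeR adjusted p 3.16e-06). With CBE they rose by 0.83 (SE 0.0907, edgeR adjusted p 2.95e-07) and 1.09 (SE 0.0841, edgeR adjusted p 8.27e-10). Without HOTSCRAMBL KO replicate 2 the KO value of MT-RNR1 was 0.22 (edgeR adjusted p 0.222) and that of MT-RNR2 was 0.39 (edgeR adjusted p 0.0145). The KO call of MT-RNR1 was also lost without AAVS1 KO replicate 1 or 2, with edgeR adjusted p of 0.0779 and 0.0872, and MT-RNR2 lost both calls when no filter on low counts was used (edgeR adjusted p 0.188 and 0.0506).

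Complex I, which passes electrons from NADH into the chain, has 7 of its subunits encoded here. With KO 7 of the 7 mRNAs rose, with a median log2 fold change of 1.06. With CBE 3 rose, MT-ND1, MT-ND3 and MT-ND4, 1 fell, MT-ND5, and the median was 0.19. MT-ND5 (ENSG00000198786, MT:12337-14148), a pump subunit in the membrane arm, had the smallest KO p of the 37. It stood at 8844 and 8497 CPM in AAVS1 KO and at 28030 and 27452 in HOTSCRAMBL KO. Its level was 8588 and 8746 CPM in AAVS1 CBE, against 6006 and 6124 in HOTSCRAMBL CBE. All 4 control libraries lay together, the KO libraries far above them and the CBE libraries below them. The gene rose by 1.68 on the log2 scale with KO (SE 0.0581, edgeR adjusted p 4.64e-17) and fell by 0.51 with CBE (SE 0.0568, edgeR adjusted p 3.17e-07). Its part of mitochondrial mRNA counts was 26.5% and 24.1% in AAVS1 KO against 40.2% and 36.0% in HOTSCRAMBL KO, and 25.9% and 24.1% in AAVS1 CBE against 13.9% and 13.4% in HOTSCRAMBL CBE.

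MT-ND4L and MT-ND4, membrane-arm subunits read from 1 bicistronic mRNA, rose with KO beside MT-ND5. MT-ND4L (MT:10470-10766) stood at 617 and 729 CPM in AAVS1 KO against 1624 and 1881 in HOTSCRAMBL KO, and at 582 and 700 in AAVS1 CBE against 622 and 668 in HOTSCRAMBL CBE. Only its KO libraries stood apart, and those of CBE fell between their own controls. Its log2 fold change was 1.38 with KO (SE 0.0863, edgeR adjusted p 5.18e-12) and 0.02 with CBE (SE 0.0860, edgeR adjusted p 0.945). MT-ND4 (MT:10760-12137) stood at 6771 and 6622, 13046 and 13971, 6395 and 6775, and 7805 and 8042 CPM in that order of groups. Both HOTSCRAMBL groups were above their controls, by 1.01 with KO (SE 0.0610, edgeR adjusted p 2.38e-12) and by 0.27 with CBE (SE 0.0604, edgeR adjusted p 0.00391). Without a scaling factor the CBE value was 0.13 (edgeR adjusted p 0.238), and without the term for the line its edgeR adjusted p was 0.0786. The call was also lost without AAVS1 CBE replicate 1 or 2 or HOTSCRAMBL CBE replicate 1, and with only the 4 CBE libraries fitted (edgeR adjusted p 0.0989).

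The other complex I mRNAs of the heavy strand are MT-ND1, MT-ND2 and MT-ND3. MT-ND1 (MT:3307-4262), which joins the membrane arm to the arm in the matrix, stood at 1946 and 2201 CPM in AAVS1 KO against 3704 and 5009 in HOTSCRAMBL KO, and at 2076 and 2390 in AAVS1 CBE against 3965 and 4276 in HOTSCRAMBL CBE. It was higher with each editor without overlap, by 1.06 (SE 0.0771, edgeR adjusted p 1.21e-10) and 0.89 (SE 0.0765, edgeR adjusted p 5.59e-09) on the log2 scale. MT-ND2 (MT:4470-5511), a membrane-arm pump subunit, stood at 1270 and 1385, 2412 and 2483, 1202 and 1445, and 1435 and 1557 CPM. It rose with KO by 0.88 (SE 0.0791, edgeR adjusted p 6.68e-09), while the CBE groups overlapped and the value was 0.18 (SE 0.0785, edgeR adjusted p 0.182). MT-ND3 (MT:10059-10404) had the lowest CPM per gene length of the mRNAs. It stood at 223 to 250 CPM in the controls, 340 and 387 in HOTSCRAMBL KO, and 341 and 316 in HOTSCRAMBL CBE. Its log2 fold changes were 0.68 (SE 0.115, edgeR adjusted p 1.62e-04) and 0.48 (SE 0.111, edgeR adjusted p 0.00547). The latter call was lost without AAVS1 CBE replicate 1 or 2 or HOTSCRAMBL CBE replicate 1, with edgeR adjusted p of 0.208, 0.0636 and 0.278, and also without a scaling factor (0.34, edgeR adjusted p 0.0556) and with only the 4 CBE libraries fitted (0.0971).

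MT-ND6 (ENSG00000198695, MT:14149-14673) is the only mRNA of the light strand, and its span begins at the base after the last of MT-ND5. It stood at 664 and 958 CPM in AAVS1 KO against 1666 and 2176 in HOTSCRAMBL KO, and at 689 and 997 in AAVS1 CBE against 887 and 1008 in HOTSCRAMBL CBE. The KO libraries were above all others, the CBE groups overlapped, and the library labelled MOLM13 was the lower of the pair in all 4 groups. Its log2 fold change was 1.25 with KO (SE 0.0909, edgeR adjusted p 1.18e-10) and 0.19 with CBE (SE 0.0899, edgeR adjusted p 0.220). Strand was not used, so the counts of MT-ND6 can include reads of heavy-strand RNA across this span. How far they do was not tested. Per kilobase, MT-ND5 reads outnumbered MT-ND6 reads by 2.54 to 3.86 in the controls, 4.88 and 3.65 in HOTSCRAMBL KO and 1.96 and 1.76 in HOTSCRAMBL CBE.

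Complex III and complex IV pass electrons on to oxygen, and their mRNAs rose with both editors, MT-CO2 with CBE alone. MT-CYB (MT:14747-15887), cytochrome b of complex III, stood at 2354 and 2599 CPM in AAVS1 KO against 3379 and 3883 in HOTSCRAMBL KO, and at 2268 and 2609 in AAVS1 CBE against 3079 and 3050 in HOTSCRAMBL CBE. It rose by 0.55 with KO (SE 0.0733, edgeR adjusted p 5.83e-06) and by 0.33 with CBE (SE 0.0730, edgeR adjusted p 0.00285). The CBE value was 0.20 (edgeR adjusted p 0.107) without a scaling factor, and the call was lost without AAVS1 CBE replicate 1 (edgeR adjusted p 0.157), without HOTSCRAMBL CBE replicate 1 (0.177), without the term for the line (0.0625) and with 4 libraries (0.109). MT-CO1 (MT:5904-7445), the catalytic subunit of complex IV, stood at 5822 and 6627 CPM in AAVS1 KO against 9012 and 10505 in HOTSCRAMBL KO, and at 6260 and 6624 in AAVS1 CBE against 9391 and 10163 in HOTSCRAMBL CBE. It rose with each editor, by 0.65 (SE 0.0616, edgeR adjusted p 1.77e-08) and 0.60 (SE 0.0615, edgeR adjusted p 9.07e-08), and the difference of 0.05 (SE 0.0867, edgeR adjusted p 0.881) did not pass.

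MT-CO2 (MT:7586-8269), which takes electrons from cytochrome c, was the 1 mRNA not called with KO. Its level was 1818 and 2156 CPM in AAVS1 KO against 1858 and 2488 in HOTSCRAMBL KO, and at 1838 and 2193 in AAVS1 CBE against 3192 and 3562 in HOTSCRAMBL CBE. The KO groups overlapped and the CBE groups did not. Its log2 fold change was 0.12 with KO (SE 0.0762, edgeR adjusted p 0.405), or −0.038 without a scaling factor, and 0.75 with CBE (SE 0.0757, edgeR adjusted p 8.80e-08). MT-CO3 (MT:9207-9990), a core subunit of complex IV, stood at 2131 and 2202, 3120 and 3985, 2117 and 2475, and 4695 and 5142 CPM. It rose by 0.70 with KO (SE 0.0755, edgeR adjusted p 1.79e-07) and by 1.10 with CBE (SE 0.0754, edgeR adjusted p 9.36e-11), the smallest CBE p of the 37.

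The complex V mRNAs rose with both editors. MT-ATP8 (MT:8366-8572) stood at 146 and 216 CPM in AAVS1 KO against 374 and 506 in HOTSCRAMBL KO, and at 160 and 210 in AAVS1 CBE against 342 and 431 in HOTSCRAMBL CBE. MT-ATP6 (MT:8527-9207), which forms the proton channel, stood at 711 and 843, 1147 and 1574, 730 and 831, and 1499 and 1529 CPM. No groups overlapped for either gene, and the library labelled MOLM13 was the lower of each pair. MT-ATP8 rose with KO by 1.29 on the log2 scale (SE 0.114, edgeR adjusted p 4.51e-09), and with CBE by 1.07 (SE 0.110, edgeR adjusted p 1.04e-07). For MT-ATP6 the increases were 0.80 (SE 0.0929, edgeR adjusted p 6.53e-07) and 0.96 (SE 0.0918, edgeR adjusted p 3.25e-08). Of the bases of these genes, 161 in MT-ATP8 and 634 in MT-ATP6 belong to no other gene.

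**Figure D3:**
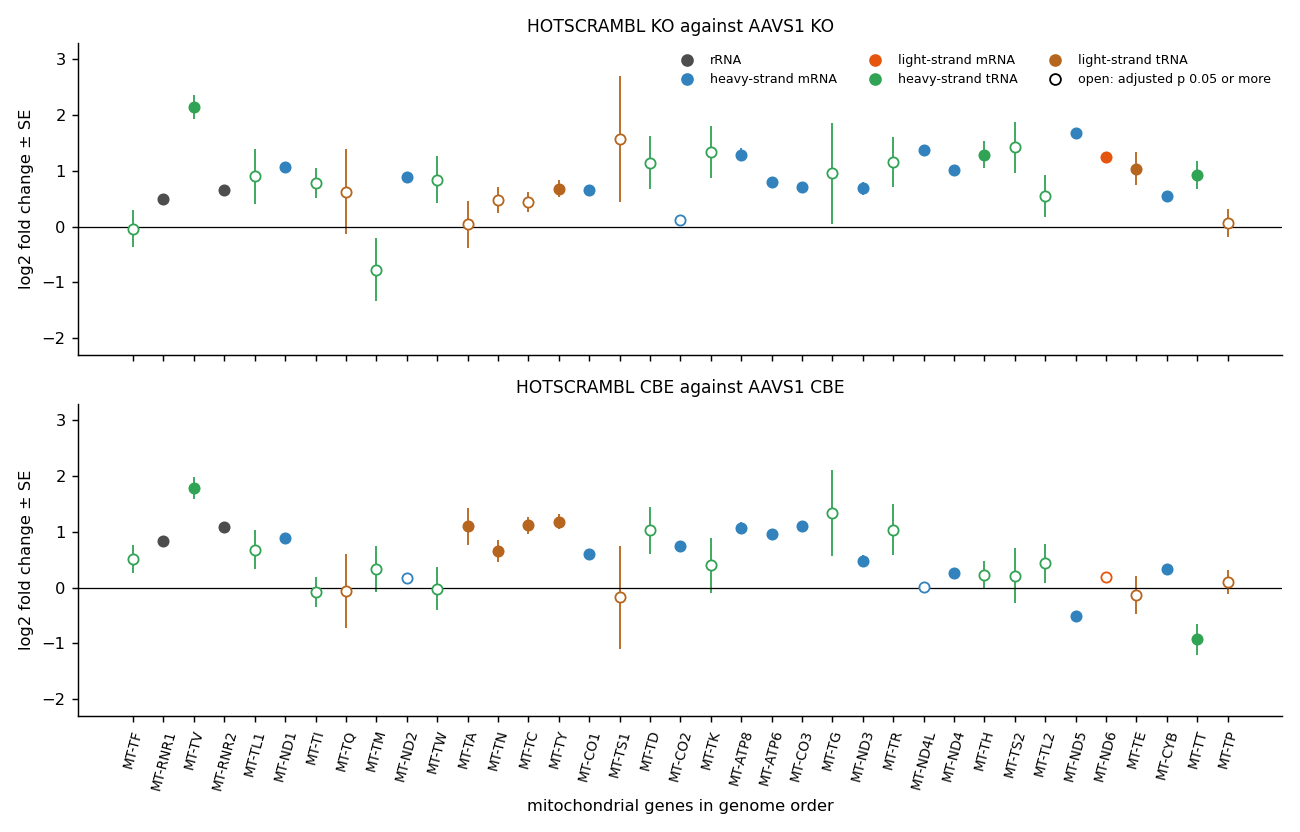
Log2 fold change with its standard error (y axis) of the 37 genes in genome order (x axis), for KO above and CBE below, with open symbols where the adjusted p was 0.05 or more. The 4 mRNAs from MT-ND4L to MT-ND6 lie between 1.01 and 1.68 with KO and between −0.51 and 0.27 with CBE.

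Among the mRNAs along the genome, the editors differed most in the stretch from MT-ND4L to MT-ND6, for which no rule was set beforehand. Its 4 mRNAs had log2 fold changes of 1.01 to 1.68 with KO and −0.51 to 0.27 with CBE. MT-TT, a tRNA outside the stretch, differed between editors by 1.85, and no tRNA inside it was called for that difference. The 4 mRNAs from MT-CO2 to MT-CO3 had 0.12 to 1.29 with KO and 0.75 to 1.10 with CBE. Over the 12 heavy-strand mRNAs the Spearman correlation of log2 fold change with gene order was 0.12 for KO and −0.44 for CBE, a description of genes that share libraries and precursors.

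Levels per kilobase of gene length were compared between genes on the mean CPM of the 4 AAVS1 libraries. MT-RNR2 led at 17117 CPM per kilobase, followed by MT-RNR1 at 4949, MT-ND4 at 4819, MT-ND5 at 4784 and MT-CO1 at 4107. MT-ATP6, MT-ATP8 and MT-ND3 were last at 1143, 884 and 669. The full gene length was used, though reads across junctions, within overlaps or placed also elsewhere were not counted. Short genes and genes with nuclear copies can therefore stand too low. MT-ND4L stood at 2212, though it shares 1 mRNA with MT-ND4. How far this moves the order was not tested. MT-ND4 and MT-ND5 were level in the controls and parted with editing. The ratio of MT-ND5 to MT-ND4 per kilobase was 0.976 to 1.02 in the 4 controls, 1.63 and 1.49 in HOTSCRAMBL KO, and 0.585 and 0.579 in HOTSCRAMBL CBE. In HOTSCRAMBL KO MT-ND5 reached 15309 CPM per kilobase and was second only to MT-RNR2. In HOTSCRAMBL CBE it stood at 3347, below MT-CO1 at 6341, MT-CO3 at 6274, MT-ND4 at 5750, MT-CO2 at 4937 and MT-ND1 at 4310.

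Among the tRNAs, MT-TV rose with both editors and MT-TT moved in opposite directions. MT-TV, which lies between the rRNA genes and touches both, stood at 25.0 and 36.0 CPM in AAVS1 KO against 122 and 148 in HOTSCRAMBL KO, and at 33.5 and 42.3 in AAVS1 CBE against 147 and 110 in HOTSCRAMBL CBE. Groups did not overlap, and its log2 fold changes, 2.15 with KO (SE 0.220, edgeR adjusted p 7.88e-08) and 1.79 with CBE (SE 0.198, edgeR adjusted p 3.78e-07), were the highest of the 37 with each editor. Set against its neighbours, it had 0.799 and 1.26 counts per 1000 rRNA counts in AAVS1 KO against 2.91 and 2.94 in HOTSCRAMBL KO, and 0.971 and 1.35 in AAVS1 CBE against 1.89 and 1.86 in HOTSCRAMBL CBE. The ratio was thus higher in both HOTSCRAMBL groups than in any control.

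MT-TT, which follows MT-CYB directly, stood at 25.5 and 35.2 CPM in AAVS1 KO against 46.7 and 68.5 in HOTSCRAMBL KO, and at 24.0 and 44.0 in AAVS1 CBE against 16.7 and 17.5 in HOTSCRAMBL CBE. The KO libraries were above all others and the HOTSCRAMBL CBE libraries below all others. Its log2 fold changes were 0.92 (SE 0.248, edgeR adjusted p 0.0168) and −0.93 (SE 0.276, edgeR adjusted p 0.0322). Both calls depended on single libraries. The KO call was lost without any 1 of the 4 KO libraries, with edgeR adjusted p from 0.124 to 0.249, and the CBE call without any 1 of the 8 libraries, with edgeR adjusted p from 0.0545 to 0.439. Without the term for the line the CBE value had an edgeR adjusted p of 0.0598, so that 1 gene in place of 2 was lower. With only the 4 libraries of a contrast fitted, the edgeR adjusted p was 0.0832 for KO and 0.157 for CBE.

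MT-TH and MT-TE were called with KO alone. MT-TH, which abuts MT-ND4, stood at 38.2 CPM in both AAVS1 KO libraries against 103 and 84.5 in HOTSCRAMBL KO, and at 24.6 and 47.1 in AAVS1 CBE against 42.6 and 39.1 in HOTSCRAMBL CBE. Only its KO groups were apart, and its log2 fold change was 1.29 (SE 0.238, edgeR adjusted p 5.01e-04). MT-TE, the light-strand tRNA for glutamic acid that abuts MT-ND6, stood at 17.1 and 21.1, 38.8 and 39.9, 13.1 and 19.9, and 15.6 and 13.5 CPM. Its log2 fold change was 1.04 with KO (SE 0.297, edgeR adjusted p 0.0252). The limit on strand given for MT-ND6 holds for MT-TE too. The CBE values were 0.23 for MT-TH and −0.13 for MT-TE, with edgeR adjusted p of 0.669 and 0.876, and the difference between editors did not pass for either, at 1.06 (edgeR adjusted p 0.113) and 1.17 (0.194). DESeq2 called both differences, at 1.13 (DESeq2 adjusted p 0.0323) and 1.24 (0.0173), and that of MT-TH also passed in an older form of the edgeR fit (adjusted p 0.0183) and without AAVS1 CBE replicate 1 (1.59, edgeR adjusted p 0.0309). The KO call of MT-TE was lost without any 1 of 6 libraries, both HOTSCRAMBL CBE libraries included (edgeR adjusted p 0.0504 to 0.300), without a scaling factor (0.0596) and with only the 4 KO libraries fitted (0.105), and that of MT-TH without AAVS1 KO replicate 1 or 2 or HOTSCRAMBL KO replicate 1 (0.0531, 0.0662 and 0.105).

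The light-strand tRNAs for alanine, asparagine, cysteine and tyrosine lie in 1 cluster between MT-ND2 and MT-CO1, and with CBE all 4 rose. MT-TY stood at 89.0 and 98.5 CPM in AAVS1 KO against 131 and 169 in HOTSCRAMBL KO, and at 106 and 98.5 in AAVS1 CBE against 236 and 229 in HOTSCRAMBL CBE. It rose by 0.68 with KO (SE 0.154, edgeR adjusted p 0.00398) and by 1.18 with CBE (SE 0.138, edgeR adjusted p 8.51e-07). MT-TC stood at 74.3 and 81.8, 93.5 and 118, 82.2 and 69.3, and 175 and 153 CPM, and rose with CBE by 1.12 (SE 0.156, edgeR adjusted p 1.49e-05). Its groups did not overlap with either editor, but the KO value of 0.44 (SE 0.175) did not pass with edgeR (adjusted p 0.135) and passed with DESeq2 (adjusted p 0.0232). MT-TA, at 9.95 and 13.7 CPM in AAVS1 CBE against 19.2 and 31.8 in HOTSCRAMBL CBE, rose by 1.10 (SE 0.334, edgeR adjusted p 0.0363). MT-TN, at 56.1 and 41.3 CPM and then 72.7 and 83.2, rose by 0.66 (SE 0.196, edgeR adjusted p 0.0322). Their KO values, 0.04 and 0.48, did not pass, and that of MT-TA was −0.83 without HOTSCRAMBL KO replicate 2. With edgeR the difference between editors did not pass for any of the 4, with values from −1.06 for MT-TA to −0.18 for MT-TN and adjusted p from 0.144 to 0.864, while DESeq2 called that of MT-TC (−0.64, DESeq2 adjusted p 0.0382).

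The CBE calls of MT-TC and MT-TY held in every fit run. The KO call of MT-TY was lost without AAVS1 KO replicate 1 or 2 or HOTSCRAMBL KO replicate 2, with edgeR adjusted p of 0.144, 0.0775 and 0.196, and with 4 libraries (0.0588). MT-TA lost its CBE call without any 1 of 6 libraries, all but those of HOTSCRAMBL KO (edgeR adjusted p 0.0856 to 0.512), without the term for the line (0.104), without a scaling factor (0.0685), in the older edgeR fit (0.0905) and with 4 libraries (0.106). MT-TN lost it without any 1 of the 8 (0.0580 to 0.461), without the term for the line (0.0553), without a scaling factor (0.0996) and with 4 libraries (0.157). The remaining 14 tRNAs were called with neither editor. The scarcest of each strand, MT-TG and MT-TS1, ranged from 0.901 to 4.26 and from 0.440 to 2.59 CPM, and no difference was called for either.

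**Figure D4:**
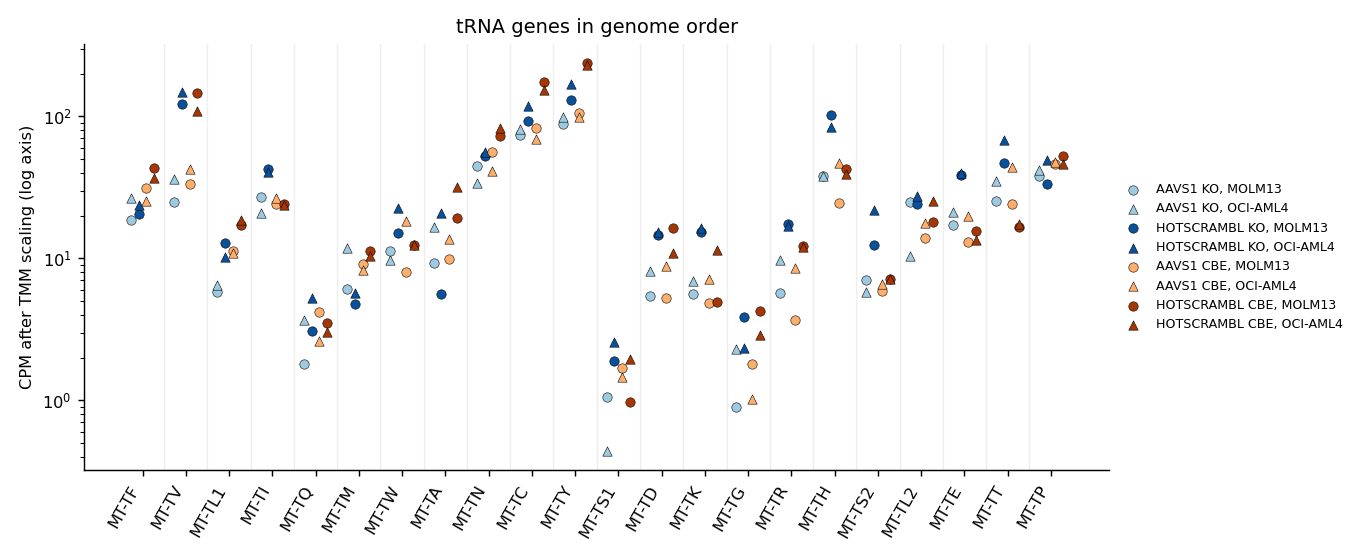
CPM after TMM scaling (y axis, log scale) of the 22 tRNA genes (x axis, genome order) in each library, with colour for the group and a circle for MOLM13 or a triangle for OCI-AML4. MT-TV rises from 25.0 to 42.3 CPM in the controls to 110 to 148 in the HOTSCRAMBL libraries, and the spread within a group is wide for scarce tRNAs such as MT-TS1.

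The difference between editors was then tested directly, as the KO effect minus the CBE effect. It was positive for 6 of the 37 genes, where 1.74% of all tested genes were called, and negative for 3, where 1.45% were. Of the complex I mRNAs 5 of 7 had the higher effect with KO. MT-ND5 differed by 2.19 on the log2 scale (SE 0.0810, edgeR adjusted p 4.74e-16), MT-ND4L by 1.36 (SE 0.121, edgeR adjusted p 5.99e-08), MT-ND6 by 1.06 (SE 0.127, edgeR adjusted p 5.37e-06), MT-ND4 by 0.74 (SE 0.0855, edgeR adjusted p 2.81e-06) and MT-ND2 by 0.70 (SE 0.111, edgeR adjusted p 2.70e-04). These 5 calls held in every fit run. The remaining positive call was MT-TT, at 1.85 (SE 0.371, edgeR adjusted p 0.00349), lost without either AAVS1 KO library, without HOTSCRAMBL KO replicate 2, AAVS1 CBE replicate 2 or HOTSCRAMBL CBE replicate 2 (edgeR adjusted p 0.0501 to 0.102).

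The effect was higher with CBE for MT-CO2, MT-CO3 and MT-RNR2. Their differences were −0.63 (SE 0.107, edgeR adjusted p 6.71e-04), −0.40 (SE 0.106, edgeR adjusted p 0.0352) and −0.44 (SE 0.118, edgeR adjusted p 0.0381). Without the term for the line 0 of these passed, with edgeR adjusted p of 0.0664, 0.276 and 0.119. MT-CO2 kept its call in every other fit, while MT-CO3 lost its without any 1 library except HOTSCRAMBL KO replicate 2 and MT-RNR2 without any 1 except HOTSCRAMBL KO replicate 2 and HOTSCRAMBL CBE replicate 2. The MT-RNR2 call was also lost with DESeq2 (DESeq2 adjusted p 0.371), and in edgeR with DESeq2 size factors (adjusted p 0.0624), without the filter on low counts (0.782) and with halved counts (0.0509), and that of MT-CO3 with DESeq2 size factors (0.0694). The MT-RNR2 value ran from −0.20 without HOTSCRAMBL KO replicate 1 and −0.23 without HOTSCRAMBL CBE replicate 1 to −0.69 without HOTSCRAMBL KO replicate 2. MT-ND1, MT-ND3, MT-CO1, MT-ATP6, MT-ATP8, MT-CYB and MT-RNR1 did not pass, with differences from −0.35 to 0.22 and edgeR adjusted p of 0.169 and above. Of these, the MT-RNR1 difference of −0.35 passed in the older edgeR fit (adjusted p 0.00679) and, at −0.61, without HOTSCRAMBL KO replicate 2 (edgeR adjusted p 0.0157).

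**Figure D5:**
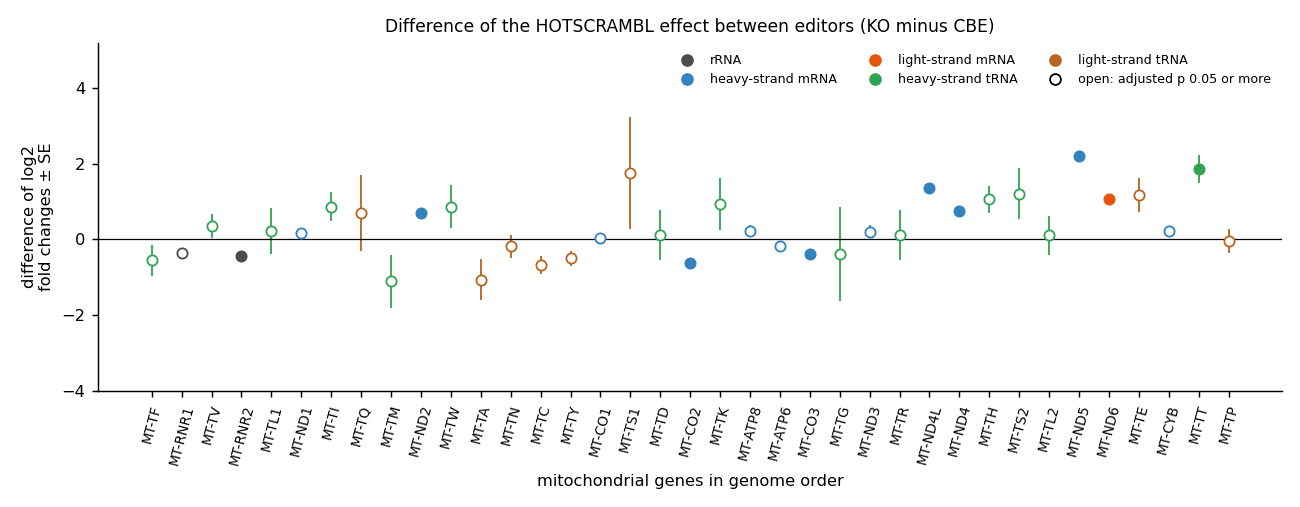
Difference of the HOTSCRAMBL log2 fold change between editors, KO minus CBE, with its standard error (y axis), for the 37 genes in genome order (x axis); open symbols had an adjusted p of 0.05 or more. MT-ND5 stands highest at 2.19, and MT-CO2, MT-CO3 and MT-RNR2 are the filled points below 0.

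A second scale divided each gene by the summed count of all 37, which shows its share of mitochondrial RNA whatever the amount of that RNA in the library. On it 3 genes were higher in HOTSCRAMBL KO, where 1.26% of all genes were called higher: MT-ND5 at 0.79 (edgeR adjusted p 1.44e-04), MT-ND4L at 0.49 (0.0102) and MT-TV at 1.25 (3.04e-04). Lower were 5, where 30.0% of all genes were called lower: MT-RNR1 at −0.41, MT-CO2 at −0.77, MT-TF at −0.93, MT-TM at −1.68 and MT-TP at −0.84. With CBE only MT-TV was higher, at 1.04 (edgeR adjusted p 8.55e-04), where 0.64% of all genes were. Lower were 9, where 26.2% of all genes were: MT-ND5 at −1.25, MT-ND4L at −0.72, MT-ND2 at −0.56, MT-ND6 at −0.55, MT-ND4 at −0.47, MT-CYB at −0.41, MT-TT at −1.68, MT-TI at −0.83 and MT-TP at −0.65. MT-TF, MT-TM, MT-TI and MT-TP, tRNAs for phenylalanine, methionine, isoleucine and proline, were named after their values were seen. On this scale the median log2 fold change of all tested genes was −0.91 with KO and −0.76 with CBE. Nuclear genes fall on it when the mitochondrial sum rises, which adds to the genes called lower and takes from those called higher. Neither the 30.0% and 26.2% nor the 1.26% and 0.64% are therefore a background rate for the members. The shares of the 37 add to a fixed total, so a rise in some lowers others.

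The editors differed on this scale for 5 genes. MT-ND5 (2.04), MT-TT (1.69), MT-ND4L (1.22) and MT-ND6 (0.92) were positive, where 0.678% of all genes were, and MT-CO2 (−0.78) was negative, where 0.906% were. The MT-CO2 call was lost without the term for the line, and also without any 1 of the AAVS1 KO, HOTSCRAMBL KO and AAVS1 CBE libraries. Leaving out 1 library gave 1 to 4 positive calls. For KO it gave 1 to 5 higher and 1 to 7 lower, and for CBE 0 to 3 higher and 2 to 9 lower.

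The controls served as the background of the editors. Between AAVS1 KO and AAVS1 CBE edgeR called 0 of the 37 genes, where 0.0% of all tested genes were called, and 0 had an unadjusted p under 0.05. DESeq2 on the same genes also called 0. The line labels separated 4 genes, each lower under the MOLM13 label, where 0.258% of all tested genes were called lower. They were MT-ND6 at −0.41 (edgeR adjusted p 8.08e-04), MT-ATP8 at −0.42 (0.00568), MT-CO2 at −0.27 (0.0123) and MT-ND1 at −0.23 (0.0481). Leaving out 1 library gave 0 to 3 of these calls, with 0 left without any 1 library except those of HOTSCRAMBL CBE, and DESeq2 called 7.

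Nuclear copies of mitochondrial genes share sequence with the members, and reads placed at both were not counted. The table lists 404 such pseudogene copies, of which 118 had a count and 51 were tested. With KO 2 of the 51 were higher and with CBE 3, near the 4.51% and 4.56% of all tested genes, and 0 were lower with either. Their median log2 fold change was nonetheless 0.52 with KO and 0.73 with CBE, against −0.01 and −0.02 over all genes tested. The 3 with the highest counts lie close together on chromosome 1. MTND2P28 (1:629640-630683) stood at 33.1 and 39.7 CPM in AAVS1 KO against 80.8 and 106 in HOTSCRAMBL KO, and at 31.1 and 35.2 in AAVS1 CBE against 24.3 and 28.0 in HOTSCRAMBL CBE. It rose with KO by 1.36 (SE 0.207, edgeR adjusted p 3.71e-05), had −0.34 with CBE (edgeR adjusted p 0.462), and differed between editors by 1.71 (edgeR adjusted p 0.00154). MTATP6P1 (1:633696-634376) rose by 0.49 with KO (SE 0.129, edgeR adjusted p 0.0145) and by 0.89 with CBE (SE 0.122, edgeR adjusted p 1.20e-05). MTCO1P12 (1:631074-632616) had 0.58 with KO (edgeR adjusted p 0.0978) and rose by 0.61 with CBE (SE 0.185, edgeR adjusted p 0.0345). Which of these reads come from the nuclear copies and which from mitochondria was not tested.

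The nuclear genes that serve mitochondrial gene expression were mostly not called. All 69 genes of 6 lists (transcription, DNA maintenance, RNA processing, RNA stability and decay, RNA modification, translation factors) were tested. With KO 1 was higher and 4 lower, with CBE 1 higher and 6 lower. Over all tested genes 4.51% were higher and 4.25% lower with KO, and 4.56% and 4.27% with CBE. The median log2 fold changes of the 69 were −0.04 and 0.06, against −0.01 and −0.02 over all genes. LRPPRC, which stabilises mitochondrial mRNAs, was the 1 that rose with each editor. It stood at 376 and 396 CPM in AAVS1 KO against 559 and 525 in HOTSCRAMBL KO, and at 363 and 321 in AAVS1 CBE against 606 and 591 in HOTSCRAMBL CBE. Groups did not overlap, and its log2 fold changes were 0.49 (SE 0.101, edgeR adjusted p 0.00168) and 0.81 (SE 0.0985, edgeR adjusted p 1.95e-06).

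PUS1, a pseudouridine synthase, fell with both editors, by 0.87 with KO (SE 0.126, edgeR adjusted p 2.18e-05) and by 0.53 with CBE (SE 0.119, edgeR adjusted p 0.00361). With KO the others that fell were DNA2, a nuclease and helicase, at −2.00 (edgeR adjusted p 0.00182), GTPBP3, which modifies tRNA wobble bases, at −0.72 (0.0389), and LIG3, the mitochondrial DNA ligase, at −0.52 (0.0345). With CBE they were POLG, the catalytic subunit of the mitochondrial DNA polymerase, at −0.74 (edgeR adjusted p 0.00401), FASTKD1, an RNA-binding protein, at −0.64 (0.00819), MTERF4, at −0.61 (0.0216), POLRMT, the mitochondrial RNA polymerase, at −0.51 (0.00488), and TOP1MT, the mitochondrial topoisomerase, at −0.47 (0.00132). POLRMT stood at 248 and 229 CPM in AAVS1 CBE and at 163 and 172 in HOTSCRAMBL CBE, without overlap. By transcription, maintenance, processing, stability, modification and translation lists in turn, KO called 0 of 9, 2 of 11, 0 of 12, 1 of 6, 2 of 18 and 0 of 13. CBE called 2 of 9, 2 of 11, 1 of 12, 1 of 6, 1 of 18 and 0 of 13. For the difference between editors edgeR called 0 of the 69, with 9 at an unadjusted p under 0.05.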

How the data were processed

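RNA counts of 8 ChIRP libraries were used, 2 in each of 4 groups taken from the sample titles. The authors deposited raw counts per gene, not normalised. Per the file headers these were made by featureCounts 2.0.6 on GRCh38 with the Ensembl 112 annotation, without strand, without reads that map to several places or touch several genes, and with both reads of a pair counted separately. The aligner and any removal of duplicates are not given in the sources used here. Per the labels' protocols, 10 ng of DNase-treated RNA entered a total RNA library kit. All 8 value columns entered, and 0 belonged to other samples. Records broken over several lines were rejoined.

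Tests used edgeR 4.0.16 under R 4.3.3 (quasi-likelihood F-test, robust, TMM, filterByExpr with a minimum count of 10) on all 24057 genes that passed, with terms for the 4 groups and for the labelled line, 3 residual degrees of freedom, Benjamini-Hochberg adjustment and a threshold of 0.05. A standard error is the log2 fold change divided by the square root of F. The second scale used the summed count of the 37 genes as library size. Each group has the same line under the same replicate number, and the labels thereby give the pairing. Deviations of paired libraries from their group means correlated at 0.00851 to 0.0245 over all tested genes and at −0.338 to 0.332 over the 37. That the replicates are separate cultures is known only from those labels. The widest 95% Wilson interval of a mitochondrial share spanned 0.0268 percentage points and covers counting error only.

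On data simulated for the KO comparison over 24057 genes, the test recovered 37.5% of 2-fold and 96% of 4-fold changes among genes of the top 25% by level, and 1.47% and 24.7% among the rest. The simulation changed 200 genes drawn from the whole table and held no difference between lines. Its rates are therefore not those of the 37 members. Alternatives were another scaling, none, scaling without the 37 genes, no filter, DESeq2 1.42.0, no term for the line, 4 libraries only, halved counts and each library left out. An older form of the edgeR fit and the difference between editors on the second scale were added after seeing the data. Members and lists were chosen with earlier results of these data known. Both rRNAs and all mRNAs are named. Of the tRNAs, those called in the KO, CBE or editor contrast are named, with the highest and lowest of each strand by count. Called genes of the nuclear lists (at most 6 per contrast) and the 3 most counted pseudogene copies are named too. 1 marker of other cells fixed with the lists is not reported here.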

Additional observations from a re-analysis of the deposited data

Results flagged for a closer look

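The following results had an effect of targeting HOTSCRAMBL that differed between Cas9 knockout and base editing in the direct edgeR test of the difference, each with 2 libraries per group. MT-ND5 differed by 2.19 on the log2 scale and moved in opposite directions, higher in both KO libraries than in both of their controls and lower in both CBE libraries than in theirs. MT-TT differed by 1.85 and was likewise above all controls with KO and below all of them with CBE. MT-ND4L differed by 1.36, MT-ND6 by 1.06, MT-ND4 by 0.74 and MT-ND2 by 0.70, each with the higher effect under KO. MT-CO2 differed by −0.63, MT-RNR2 by −0.44 and MT-CO3 by −0.40, each with the higher effect under CBE. These calls were not equally firm. Of 16 alternative fits, the call was lost in 11 for MT-RNR2, 9 for MT-CO3, 5 for MT-TT and 1 for MT-CO2. The calls of MT-ND5, MT-ND4L, MT-ND6, MT-ND4 and MT-ND2 held in every one.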

How the results depend on the processing

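For the 25 named mitochondrial genes under KO, CBE and the difference between editors, 1250 values were recomputed over the alternatives, of which 1125 kept direction and side of the threshold, 98 lost a call, 8 gained one and 19 changed sign. The calls that held in every alternative were 13 of 19 with KO, 11 of 18 with CBE and 5 of 9 between editors. Leaving out 1 library gave 14 to 19 genes higher with KO, 11 to 15 higher and 1 lower with CBE, and 5 to 7 positive and 1 to 4 negative between editors. With no replicate block, that is without the pairing by line, 1 gene was lower with CBE, 0 were negative between editors, and 0 were negative between editors on the mitochondrial scale; no other count of calls moved by over 1.5 times, while single calls lost are given beside the genes. DESeq2 size factors gave 1 negative gene between editors, and the fit of 4 libraries gave 1 lower with CBE, or 5 lower on the mitochondrial scale.

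DESeq2 itself gave 7 genes lower under the MOLM13 label and, on the mitochondrial scale, 5 higher with KO, 4 higher with CBE and 4 negative between editors. The older edgeR fit gave 1 gene higher under the MOLM13 label and, on the mitochondrial scale, 2 higher with CBE and 2 negative between editors. Leaving out 1 library gave 0 to 1 higher and 0 to 3 lower under the MOLM13 label. On the mitochondrial scale it gave 1 to 5 higher and 1 to 7 lower with KO, 0 to 3 higher and 2 to 9 lower with CBE, and 1 to 4 positive and 0 to 2 negative between editors. Without a scaling factor the class differences with KO were 0.93 for heavy-strand mRNA, 1.10 for light-strand mRNA and 0.98 for heavy-strand tRNA (1.16 with DESeq2 size factors), and with CBE 0.23 for heavy-strand mRNA and 0.75 for light-strand tRNA. Shares without the rRNAs were 3.78% in AAVS1 KO and 7.27% in HOTSCRAMBL KO, then 3.85% in AAVS1 CBE and 4.66% in HOTSCRAMBL CBE. With the rRNAs kept, the shares of the 4 groups in that order were 6.80%, 11.3%, 7.18% and 10.9%. With the 10 most abundant nuclear genes then taken out of the total, they were 7.28%, 12.4%, 7.70% and 11.8%. The cause of these changes was not tested.

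Among these values, every change of sign was in one that did not pass. Without scaling MT-CO2 was at −0.038 and MT-TA at −0.13 with KO, and MT-ND4L at −0.12 with CBE; MT-TA with KO was also at −0.10 with DESeq2 and −0.12 with the older fit. The other changes of sign came from leaving out 1 library. The ranges were then, with KO, −0.83 to 0.38 for MT-TA and, with CBE, −0.054 to 0.082 for MT-ND4L, −0.41 to 0.15 for MT-TE, −0.29 to 0.81 for MT-TH and −0.74 to 0.38 for MT-TS1. Between editors they were −0.0069 to 0.11 for MT-CO1, −1.25 to 0.76 for MT-TG, −0.43 to 0.022 for MT-TN and −0.0014 to 0.77 for MT-TV.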
